A study of Mus musculus with 6 samples.

Results

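The genes of the mitotic spindle, the kinetochore, condensin and mitotic exit were followed through healing flexor digitorum longus (FDL) tendons, in which 50 genes were chosen by symbol. All 50 were listed among 53819 genes, and all 50 were among the 17496 genes with enough counts to be tested. RNA was sequenced from tendons that had been cut through completely and repaired, harvested at D28 post-surgery from 3 DTR and 3 WT mice, with 1 tendon per library. DTR mice were *Scx-Cre*+; *DTR* F/+ and WT mice were *Scx-Cre*-; *DTR* F/+ littermates, both male and female and 10 to 12 weeks old. Both genotypes carried the *DTR* allele (the diphtheria toxin receptor behind a stop cassette) and both received 5 daily injections of 100 ng diphtheria toxin (DT) from D14 to D18. *Scx-Cre* was active throughout life, so the receptor marked all cells that had ever expressed *Scx*, a tendon transcription factor, and not one class of adult tendon cell. The comparison addresses how the healing tendon differed after DT was given to deplete the *Scx* lineage. The paper names as a limitation that the efficiency of depletion after surgery could not be quantified.

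Most of these genes are silent in resting cells and are transcribed late in G2 phase and in mitosis, so in a tissue their RNA marks dividing cells. The kinetochore joins each chromosome to spindle microtubules, the spindle checkpoint delays anaphase until every chromosome is attached, and condensin compacts chromosomes. The anaphase-promoting complex then destroys cyclin B and securin, and cytokinesis separates the daughter cells. Intact adult tendon holds few dividing cells, and division follows injury.

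Counts on genes came to between 42744138 and 48854310 per library. Throughout, normalized counts are counts scaled by the TMM method to the mean library size, and values of single libraries are given in the order of replicates 1 to 3. The log2 fold change (log2FC) is DTR minus WT, and SE is its standard error. *Scx* was no lower in DTR than in WT libraries, with 2201.6 to 3064.1 normalized counts in WT and 3407.3 to 3531.8 in DTR tendons (log2FC 0.39, SE 0.12, edgeR adjusted p = 0.371). All 15 tendon cell markers were detected in every library and held 5.1% to 6.06% of the counts in WT and 5.66% to 7.02% in DTR tendons. The most abundant markers weigh most in that sum, and single markers differed in direction. In DTR tendons 11 were fitted higher and 4 lower: *Chad* (log2FC -1.42, SE 0.71, no overlap), *Prg4* (-0.47, SE 0.24), *Comp* (-0.18, SE 0.17) and *Fmod* (-0.17, SE 0.17). *Xist* was high in WT replicate 2 and DTR replicates 2 and 3 (49303 to 54082 counts) and had at most 4 counts in the other libraries, so each genotype held both sexes.

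The mitotic genes were higher in DTR replicates 1 and 3 than in the WT tendons, and DTR replicate 2 lay largely within the WT range. Together they held 0.072%, 0.0562% and 0.0505% of the counts across the WT tendons and 0.0982%, 0.0629% and 0.106% across the DTR tendons. DTR replicate 1 was above all WT libraries for 49 members, with *Cenpa* as the exception, and DTR replicate 3 for 49, with *Bub3* as the exception. DTR replicate 2 was above all WT libraries for 7 members, within their range for 41 and below them for 2, *Espl1* and *Bub3*. Of all genes tested, 32.7%, 28.3% and 28.4% were above all WT libraries in DTR replicates 1, 2 and 3. DTR replicate 2 was the lowest DTR library for 50 of 50 members, and WT replicate 1 was the highest WT library for 47 of 50. In bulk tissue, fewer cells of a type and less RNA per cell cannot be told apart.

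**Figure D1:**
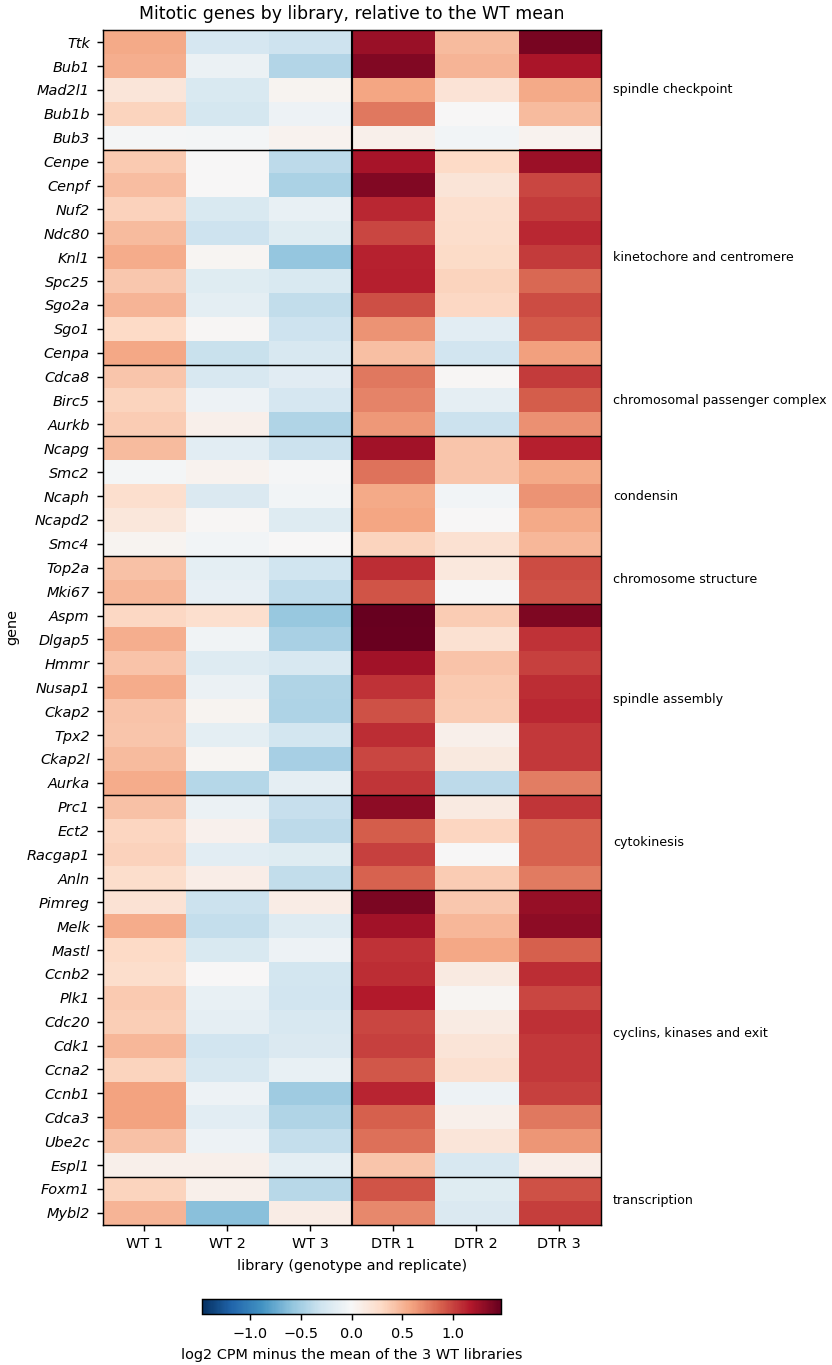
Colour gives log2 CPM (counts scaled to library size) of each mitotic gene minus its mean over the 3 WT libraries, with genes in rows by role and libraries in columns. DTR 1 and DTR 3 stand above the WT libraries for 49 of 50 genes each, whereas DTR 2 does so for 7, and WT 1 is the highest WT library for 47.

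The median log2FC of the 50 members was 0.74 (a fold of 1.67), against 0.01 for all genes tested, with values from 0.03 for *Bub3* to 1.10 for *Aspm* and SEs from 0.08 to 0.42. All 50 were fitted higher in DTR tendons, as were 51.5% of all genes. The quasi-likelihood test of edgeR gave 0 of the 50 members an adjusted p under 0.05, as for 0% of all genes, and the smallest adjusted p was 0.268 among the members and 0.199 over all genes. An unadjusted p under 0.05 was given to 28 members, or 56%, against 5.52% of all genes in that direction. DESeq2 called 11 members higher, or 22%, against 1.12% of the genes it tested, and limma-voom called 0. These 11 were *Aspm*, *Pimreg*, *Bub1*, *Melk*, *Cenpe*, *Ncapg*, *Hmmr*, *Mastl*, *Ccna2*, *Anln* and *Smc2*. Every DTR library was above every WT library for 7 members, or 14%, against 8.96% of all genes, and these were *Aspm*, *Pimreg*, *Mastl*, *Anln*, *Smc2*, *Mad2l1* and *Smc4*. Genes of the cell cycle were singled out by the study on these same libraries, so the direction of the members is not independent evidence.

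These counts rested on single libraries. Without DTR replicate 2, edgeR called 8 members higher, or 16%, against 0.572% of all genes: *Cenpe*, *Nuf2*, *Smc2*, *Aspm*, *Racgap1*, *Ccna2*, *Ccnb2* and *Pimreg*. The 28 members with an unadjusted p under 0.05 became 46 without DTR replicate 2 and 40 without WT replicate 1. They became 8 without WT replicate 2, 10 without WT replicate 3, 10 without DTR replicate 1 and 8 without DTR replicate 3. The 7 members without overlap became 48 without DTR replicate 2 and 38 without WT replicate 1. With all libraries kept, 5.52% of all genes were higher at an unadjusted p under 0.05 in edgeR and 8.96% were higher without overlap. Groups of fewer libraries separate more readily for any gene, and the shares of all genes for both counts with a library left out are not given here. The median log2FC stayed between 0.58 and 0.98 in all of these fits.

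The promoters of these genes were read for the short elements that are known from genes transcribed in G2 and mitosis. The cell cycle genes homology region reads TTTGAA or TTTAAA and is bound by the DREAM and MuvB complexes, and the CCAAT box is bound by NF-Y. RefSeq promoters (GRCm38.p6, from 250 bases before to 50 after the start) were matched for 43 members and not for *Aurkb*, *Ccna2*, *Dlgap5*, *Foxm1*, *Pimreg*, *Smc4* and *Tpx2*. Both strands were searched, so TTCAAA counts as TTTGAA and ATTGG as CCAAT, and a gene counts if any of its listed promoters holds the letters. TTTGAA was in the promoters of 30 of the 43 members, or 69.8%, against 15.1% of 12706 tested genes with a promoter. TTTAAA was in 20.9% against 11.5%, and CCAAT was in 76.7% against 42%. TTTGAA or TTTAAA lay within 50 bases on either side of the start in 29 of the 43 members, or 67.4%, against 6.87%, and 67.4% held a CCAAT together with TTTGAA or TTTAAA anywhere in the window, against 9.52%. These matches are letters in a window and were not tested for binding.

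The 150 bases before the start are shown, 5′ to 3′ on the gene's own strand, for the kinases *Cdk1* and *Plk1*, cyclin B1 and the partners of the anaphase-promoting complex, for the condensin subunit with the largest fold change, and for *Bub3* and *Espl1*, the members with the smallest. Capitals mark the cell cycle element and the CCAAT box on either strand. *Bub3* has another listed start, whose sequence is not shown.
Cdk1, chr10:69352913-69353062, minus strand: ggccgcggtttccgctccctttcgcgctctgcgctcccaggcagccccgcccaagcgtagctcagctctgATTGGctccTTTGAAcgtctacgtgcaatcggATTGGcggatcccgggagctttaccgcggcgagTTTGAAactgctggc
Plk1, chr7:122159285-122159434, plus strand: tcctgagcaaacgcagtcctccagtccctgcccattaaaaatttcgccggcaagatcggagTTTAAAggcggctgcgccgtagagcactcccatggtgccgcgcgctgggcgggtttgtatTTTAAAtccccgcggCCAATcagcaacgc
Ccnb1, chr13:100786487-100786636, minus strand: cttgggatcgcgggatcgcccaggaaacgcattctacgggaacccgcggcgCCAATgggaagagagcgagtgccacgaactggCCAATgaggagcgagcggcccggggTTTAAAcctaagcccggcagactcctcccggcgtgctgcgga
Cdc20, chr4:118437344-118437493, minus strand: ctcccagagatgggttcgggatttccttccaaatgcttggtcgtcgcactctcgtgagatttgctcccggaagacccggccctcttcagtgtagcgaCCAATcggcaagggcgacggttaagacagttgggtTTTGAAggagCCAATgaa
Ube2c, chr2:164769779-164769928, plus strand: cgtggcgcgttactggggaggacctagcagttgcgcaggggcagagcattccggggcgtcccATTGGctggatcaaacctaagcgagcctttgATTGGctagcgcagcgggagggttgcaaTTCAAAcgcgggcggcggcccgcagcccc
Ncapg, chr5:45669775-45669924, plus strand: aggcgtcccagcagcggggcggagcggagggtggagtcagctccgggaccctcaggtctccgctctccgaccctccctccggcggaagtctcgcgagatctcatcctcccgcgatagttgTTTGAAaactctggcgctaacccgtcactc
Bub3, chr7:131560220-131560369, plus strand: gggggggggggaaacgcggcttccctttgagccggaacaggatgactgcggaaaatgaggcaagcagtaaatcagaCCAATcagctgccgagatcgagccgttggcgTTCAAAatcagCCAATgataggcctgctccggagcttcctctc
Espl1, chr15:102296143-102296292, plus strand: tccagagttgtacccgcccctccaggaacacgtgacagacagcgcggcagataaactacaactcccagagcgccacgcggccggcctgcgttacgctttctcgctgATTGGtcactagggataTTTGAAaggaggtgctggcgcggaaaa

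*Cdk1* held TTTGAA at -71 and -15 from the start, *Cdc20* at -18 and *Ube2c*, on the other strand, at -29, while *Plk1* held TTTAAA at -89 and -29 and *Ccnb1* at -42. *Plk1* also held TTTGAA at 30, after the start and outside the stretch shown. The promoters of *Bub3* and *Espl1* held TTTGAA and CCAAT as well, *Espl1* with TTTGAA at -27 and *Bub3* with it on the other strand at -43. None of these letters was found in the windows of *Melk*, *Nuf2*, *Nusap1*, *Mybl2*, *Mad2l1* and *Ncaph*, and those of *Bub1*, *Mastl*, *Sgo2a* and *Sgo1* held CCAAT but neither TTTGAA nor the TTTAAA form. Members with and without the letters were found among both larger fold changes (*Aspm* with a log2FC of 1.10 had them all, *Melk* with 1.01 had none) and smaller ones (*Espl1* with 0.11 had TTTGAA and CCAAT, *Ncaph* with 0.41 had none).

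The spindle checkpoint genes ranged from the third-largest fold change of all members to the smallest. *Ttk*, the kinase that starts checkpoint signalling, showed 171.5, 97 and 92.5 normalized counts across the WT tendons and 282.4, 160.7 and 305.2 across the DTR tendons. *Bub1*, a kinase docked at the kinetochore, showed 238.5, 154.4 and 121.6 across the WT and 427.7, 234.4 and 381.2 across the DTR tendons. For both genes DTR replicates 1 and 3 were above all WT libraries and DTR replicate 2 was below WT replicate 1. Fitted log2FC values were 1.05 for *Ttk* (SE 0.34, adjusted p = 0.38 from edgeR) and 1.02 for *Bub1* (SE 0.32, adjusted p = 0.371). *Mad2l1*, which encodes the MAD2 protein that holds CDC20 inactive, showed 674, 508.5 and 610.1 across the WT and 885.3, 683 and 874.5 across the DTR tendons. Its groups did not overlap, by a margin of DTR replicate 2 over WT replicate 1 that was small beside the spread, and its log2FC was 0.45 (SE 0.15). *Bub1b*, which binds CDC20 together with MAD2, had a log2FC of 0.42 (SE 0.23). *Bub3*, the adaptor that brings BUB1 and BUBR1 to the kinetochore, showed 2451.3, 2428.5 and 2575.6 across the WT and 2612.5, 2423 and 2564.9 across the DTR tendons. The *Bub3* groups overlapped fully, and the log2FC was 0.03 (SE 0.08). Per kilobase of exon, the WT mean of *Bub3* was 354.7 normalized counts, against 98.6 for *Bub1b*, 71.2 for *Mad2l1*, 39.4 for *Bub1* and 24.5 for *Ttk*. Here and below, the length is that of all annotated exons of a gene together, such as 8390 bases for *Mad2l1*. Levels per kilobase thus also depend on the annotation. *Bub3* also followed the other members least over the 6 libraries, with Pearson's r of 0.492 to their mean.

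The 9 kinetochore and centromere genes had a median log2FC of 0.80, and 6 of them were higher with an unadjusted p under 0.05 in edgeR (5.52% of all genes). *Cenpe*, the kinesin that moves chromosomes to the spindle equator, showed 467.9, 358.8 and 273.4 normalized counts across the WT tendons and 828.6, 437.2 and 858 across the DTR tendons. *Cenpf*, a large coiled-coil protein of the outer kinetochore, showed 700.4, 517 and 371.1 across the WT and 1319.1, 586.4 and 1009.1 across the DTR tendons. DTR replicate 2 was below WT replicate 1 for both, so the groups overlapped. Their log2FC values were 0.95 for *Cenpe* (SE 0.31, adjusted p = 0.392 from edgeR and 0.0367 from DESeq2) and 0.88 for *Cenpf* (SE 0.36). The subunits of the NDC80 complex, which grips microtubules, differed little among themselves, with log2FC values of 0.83 for *Nuf2*, 0.80 for *Ndc80*, 0.78 for *Spc25* and 0.81 for *Spc24*, the partner of *Spc25* outside the 50 genes (SEs from 0.26 to 0.32). *Knl1*, the scaffold on which BUB1 docks, had 0.80 (SE 0.34). The shugoshins, which protect centromeric cohesin, had 0.72 for *Sgo2a* (SE 0.28) and 0.52 for *Sgo1* (SE 0.31). *Cenpa*, the histone H3 variant that marks the centromere, showed 638.5, 340.9 and 361.7 across the WT and 581.2, 352 and 649.4 across the DTR tendons. WT replicate 1 was thus at the level of DTR replicates 1 and 3, and the log2FC of *Cenpa* was 0.24 (SE 0.32). The chaperone that loads the variant, *Hjurp*, is outside the 50 genes and had 0.10 (SE 0.12), and *Oip5*, of the same loading pathway, had 0.92 (SE 0.27) without overlap between groups.

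The 3 genes of the chromosomal passenger complex, which corrects faulty attachments, had a median log2FC of 0.54. *Cdca8* (borealin) showed 297.4, 188.3 and 198.5 normalized counts across the WT tendons and 383.4, 225.8 and 457.3 across the DTR tendons. *Birc5* (survivin) showed 477.1, 356.9 and 317 across the WT and 629.7, 346.3 and 699.8 across the DTR tendons. *Aurkb*, the kinase of the complex, showed 276.1, 224.1 and 155.9 across the WT and 331.8, 170.3 and 340.1 across the DTR tendons. For all 3 genes DTR replicate 2 lay within the WT range and DTR replicates 1 and 3 above it. Fits gave log2FC values of 0.64 (SE 0.30) for *Cdca8*, 0.54 (SE 0.28) for *Birc5* and 0.36 (SE 0.32) for *Aurkb*, values that differed from each other by no more than their SEs. The scaffold *Incenp*, outside the 50 genes, had 0.43 (SE 0.24). None of these 4 had an unadjusted p under 0.05 in edgeR.

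The 5 subunits of condensin I had log2FC values around a median of 0.41, with less spread between libraries for the ATPases than for the other subunits. *Smc2*, an ATPase of the ring, showed 953.1, 1011.3 and 964.6 normalized counts across the WT tendons and 1701.5, 1300 and 1444.8 across the DTR tendons. *Smc4*, the ATPase it pairs with, showed 3258.3, 3094.2 and 3173.3 across the WT and 4001.7, 3696.2 and 4459.7 across the DTR tendons. The WT libraries of both genes were close together, and every DTR library was above them. *Smc2* had a log2FC of 0.60 (SE 0.11) with the smallest adjusted p of the members, 0.268 from edgeR and 0.00407 from DESeq2, and *Smc4* had 0.35 (SE 0.09, adjusted p = 0.321 from edgeR). *Ncapg*, a HEAT-repeat subunit whose promoter is shown above, showed 319.7, 208.1 and 184 across the WT and 543.1, 306.1 and 511.7 across the DTR tendons. Its log2FC was the largest of the complex at 0.93 (SE 0.29), but DTR replicate 2 was below WT replicate 1. *Ncaph*, the subunit that closes the ring, showed 412.1, 300.4 and 336.8 across the WT and 511.2, 336.7 and 549.8 across the DTR tendons. *Ncapd2*, the other HEAT-repeat subunit, showed 971.4, 880.4 and 758.8 across the WT and 1297.5, 866.7 and 1281.4 across the DTR tendons. Both overlapped through DTR replicate 2, with log2FC values of 0.41 (SE 0.22) and 0.40 (SE 0.17). Per kilobase of exon, the WT mean was 609.5 normalized counts for *Smc4*, 178.2 for *Smc2*, 138.9 for *Ncapd2*, 81.2 for *Ncaph* and 33.6 for *Ncapg*. *Smc2* and *Smc4* also serve condensin II, whose own subunits had log2FC values of 0.42 for *Ncapg2* (SE 0.11, no overlap), -0.03 for *Ncapd3* (SE 0.11) and -0.03 for *Ncaph2* (SE 0.08).

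*Top2a*, the topoisomerase that untangles sister chromatids, showed 1826, 1233.5 and 1105.9 normalized counts across the WT tendons and 2894.9, 1509.5 and 2631.7 across the DTR tendons. *Mki67*, which coats mitotic chromosomes and is the usual marker of proliferation, showed 3666.3, 2397.4 and 2013.3 across the WT and 4974.6, 2580.9 and 4993.1 across the DTR tendons. DTR replicate 2 was below WT replicate 1 for both genes. The log2FC values were 0.76 for *Top2a* (SE 0.31, adjusted p = 0.459 from edgeR) and 0.64 for *Mki67* (SE 0.35, adjusted p = 0.536). *Top2a* followed the mean of the other members most closely, with Pearson's r of 0.999 over the 6 libraries.

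The 8 spindle assembly genes had a median log2FC of 0.81, and 6 of them were higher at an unadjusted p under 0.05 in edgeR, against 5.52% of all genes. *Aspm*, which acts at spindle poles, showed 376.6, 361.6 and 204.8 normalized counts across the WT tendons and 845.1, 393.2 and 789.2 across the DTR tendons. Its DTR replicate 2 was just above WT replicate 1, and DTR replicates 1 and 3 were far above, so the groups did not overlap. The log2FC of *Aspm* was 1.10 (SE 0.36), the largest of the 50, with an adjusted p of 0.396 from edgeR and 0.0221 from DESeq2. *Dlgap5*, which stabilises kinetochore fibres, showed 258.8, 172.3 and 127.8 across the WT and 490.6, 208.5 and 375.1 across the DTR tendons, with a log2FC of 0.94 (SE 0.37). *Hmmr*, *Nusap1*, *Ckap2*, *Tpx2* and *Ckap2l*, which bind and organise spindle microtubules, had log2FC values from 0.72 for *Ckap2l* to 0.89 for *Hmmr* (SEs from 0.26 to 0.32). *Aurka*, the centrosomal kinase that TPX2 activates, showed 286.2, 146 and 178.8 across the WT and 407.1, 148.3 and 330.9 across the DTR tendons. DTR replicate 2 lay at the lower end of the WT range for *Aurka*, and the log2FC was 0.54 with an SE of 0.42, the largest error of the 50.

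The 4 cytokinesis genes lay close together, with log2FC values from 0.66 to 0.88. *Prc1*, which bundles the microtubules of the central spindle, showed 925.7, 644.1 and 541.5 normalized counts across the WT tendons and 1698.4, 749 and 1426.3 across the DTR tendons. *Ect2*, the exchange factor that activates RhoA at the equator, showed 327.9, 274 and 200.6 across the WT and 486.4, 327.2 and 481.9 across the DTR tendons. Both overlapped through DTR replicate 2, which for *Ect2* was within 1 count of WT replicate 1. *Anln*, the scaffold of the contractile ring, showed 1133.8, 1017 and 735.9 across the WT and 1730.3, 1228.3 and 1604.1 across the DTR tendons, with no overlap. Its log2FC was 0.66 (SE 0.19, adjusted p = 0.354 from edgeR and 0.044 from DESeq2). *Racgap1* and its partner *Kif23* (outside the 50 genes), which form centralspindlin, had 0.67 (SE 0.29) and 0.66 (SE 0.30).

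The 12 cyclins, kinases and exit factors had a median log2FC of 0.75, and 8 were higher with an unadjusted p under 0.05 in edgeR, where 5.52% of all genes were. *Pimreg*, a mitotic regulator, showed 156.3, 107.3 and 145.5 normalized counts across the WT tendons and 353.5, 178.9 and 330.9 across the DTR tendons. *Mastl*, the Greatwall kinase that restrains phosphatase PP2A in mitosis, showed 315.7, 220.3 and 246.3 across the WT and 538, 384.5 and 477.8 across the DTR tendons. Neither gene overlapped between groups, and for *Mastl* DTR replicate 2 was clearly above WT replicate 1. The log2FC values were 1.08 for *Pimreg* (SE 0.30, adjusted p = 0.346 from edgeR and 0.0195 from DESeq2) and 0.84 for *Mastl* (SE 0.20, adjusted p = 0.293 from edgeR and 0.00828 from DESeq2). The substrates of *Mastl*, *Ensa* and *Arpp19*, are outside the 50 genes and had -0.04 (SE 0.11) and -0.14 (SE 0.07). *Melk*, a kinase of proliferating cells, showed 223.3, 119.6 and 134.1 across the WT and 360.7, 215.2 and 386.4 across the DTR tendons, overlapping through DTR replicate 2, with a log2FC of 1.01 (SE 0.32).

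*Cdk1*, the kinase that drives entry into mitosis, showed 854.7, 499.1 and 525.9 normalized counts across the WT tendons and 1218.1, 691.6 and 1247.5 across the DTR tendons. *Ccnb1*, its main mitotic cyclin, showed 226.4, 143.1 and 103.9 across the WT and 327.7, 142.5 and 303.1 across the DTR tendons. *Ccnb2*, the other B-type cyclin here, showed 377.6, 318.3 and 260.9 across the WT and 668.8, 346.3 and 671 across the DTR tendons. DTR replicates 1 and 3 were above all WT libraries for the kinase and both cyclins, and DTR replicate 2 was within the WT range. The log2FC values were 0.75 for *Cdk1* (SE 0.31), 0.71 for *Ccnb1* (SE 0.40) and 0.82 for *Ccnb2* (SE 0.28), and *Ccna2*, the cyclin of S phase and G2, had 0.75 (SE 0.25). Per kilobase of exon, the WT mean was 208.3 normalized counts for *Ccnb2* and 37.4 for *Ccnb1*. This difference is uncertain, as the exon lengths used were 1531 and 4217 bases. Of the 50-base stretches of *Ccnb1*, 23.4% also occur in other genes, against 0% for *Ccnb2*. The mitotic kinase *Plk1* had a log2FC of 0.78 (SE 0.32), and *Cdca3*, which promotes mitotic entry, had 0.55 (SE 0.33). Of the partners of the anaphase-promoting complex, its activator *Cdc20* had 0.76 (SE 0.29) and its ubiquitin-conjugating enzyme *Ube2c* 0.54 (SE 0.26). *Espl1*, the protease separase that cuts cohesin, showed 500.4, 500.9 and 433.4 across the WT and 634.8, 405.6 and 510.7 across the DTR tendons. DTR replicate 2 was below every WT library for *Espl1*, and its log2FC was 0.11 (SE 0.18). Without DTR replicate 1 it turned to -0.07. Its inhibitor securin, *Pttg1*, is outside the 50 genes and showed 1090.1, 1078.2 and 1089.3 across the WT and 753.4, 1051.3 and 790.2 across the DTR tendons, with every DTR library below every WT library (log2FC -0.33, SE 0.14, adjusted p = 0.452 from edgeR).

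*Foxm1* and *Mybl2* encode transcription factors of G2 and mitotic genes. *Foxm1* showed 555.2, 466.1 and 330.5 normalized counts across the WT tendons and 833.7, 388.4 and 844.7 across the DTR tendons. *Mybl2* showed 113.7, 51.8 and 86.3 across the WT and 131.9, 68.9 and 164.4 across the DTR tendons. DTR replicate 2 was below the WT mean for both, and the groups overlapped. The log2FC values were 0.61 for *Foxm1* (SE 0.34) and 0.54 for *Mybl2* (SE 0.41).

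**Figure D2:**
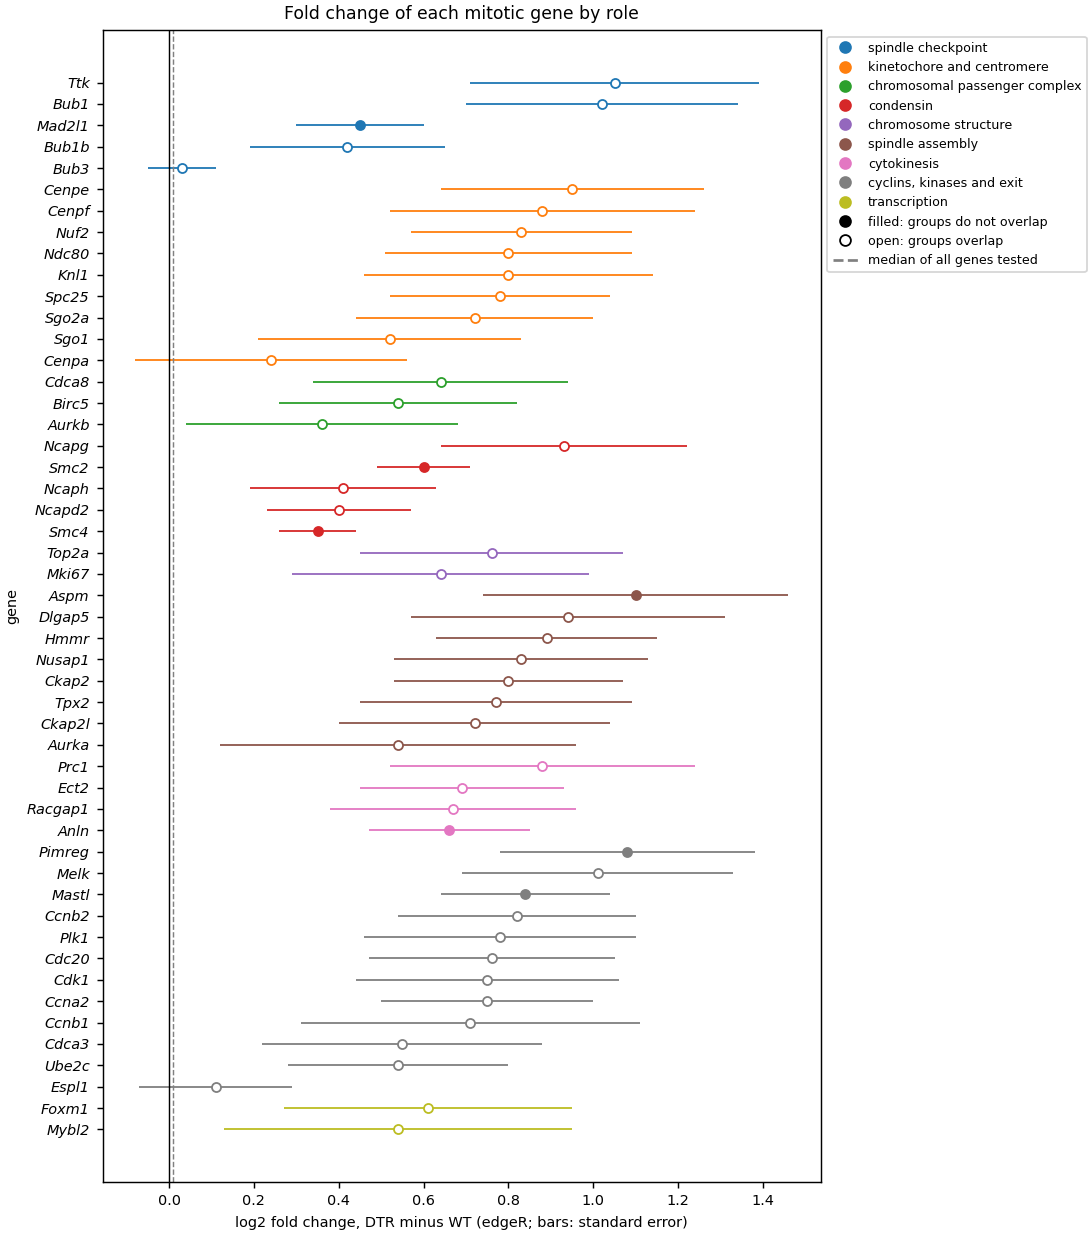
Points give the log2FC (DTR minus WT) of each mitotic gene from edgeR, with bars of 1 SE, coloured by role, filled where the groups do not overlap. All 50 lie right of 0, from 0.03 for *Bub3* to 1.10 for *Aspm*, and the dashed line marks the median of all genes tested, 0.01.

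Transcripts of skeletal muscle were low in the DTR libraries in which the mitotic genes were high. All 30 muscle markers were detected in every library, and their sum was 2.47% to 3.37% of the counts in WT tendons and 0.438%, 2.97% and 0.82% in DTR replicates 1 to 3. DTR replicates 1 and 3, where the mitotic genes were highest, were thus the libraries with the least muscle RNA, and DTR replicate 2 lay within the WT range for both. Among the WT tendons, replicate 1 had both the highest muscle share and the highest mitotic share. With the muscle level as a covariate in edgeR, the median log2FC of the 50 members was 0.21, 39 were fitted higher and 1 had an unadjusted p under 0.05. In that fit *Bub1b*, *Bub3*, *Cenpa*, *Sgo1*, *Aurkb*, *Birc5*, *Aurka*, *Ccnb1*, *Espl1*, *Foxm1* and *Mybl2* had a log2FC below 0. With muscle and keratinocyte markers taken out before normalization the median was 0.73 and 28 members had an unadjusted p under 0.05. Taking out the markers leaves the counts of the members as they were. It does not adjust for muscle content and cannot show whether that content matters. Keratinocyte markers held 0.513%, 0.35% and 0.0106% of the counts in WT and 0.00447%, 0.00704% and 0.0534% in DTR tendons. Of the 20, all had a count in WT replicates 1 and 2 and DTR replicate 3, while 15, 10 and 13 had one in WT replicate 3 and DTR replicates 1 and 2, where *Krt15* and *Flg* were at 0. Macrophage and myeloid markers, 15 of 15 in every library, held 0.409% to 0.504% in WT and 0.447% to 0.484% in DTR tendons, lymphoid markers 0.00484% to 0.00862% and 0.00571% to 0.00742%, and endothelial markers 0.102% to 0.133% and 0.105% to 0.125%. Erythroid markers, of which 8 or 9 of 10 had a count, held 0.00966% to 0.0218% in WT and 0.00553% to 0.00905% in DTR tendons. Which cells carried the mitotic transcripts was not tested. Among the libraries with high *Xist*, the median log2 difference of the members between DTR replicates 2 and 3 and WT replicate 2 was 0.62 (49 higher, 1 lower), and among those with low *Xist*, between DTR replicate 1 and WT replicates 1 and 3, it was 0.93 (50 higher).

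**Figure D3:**
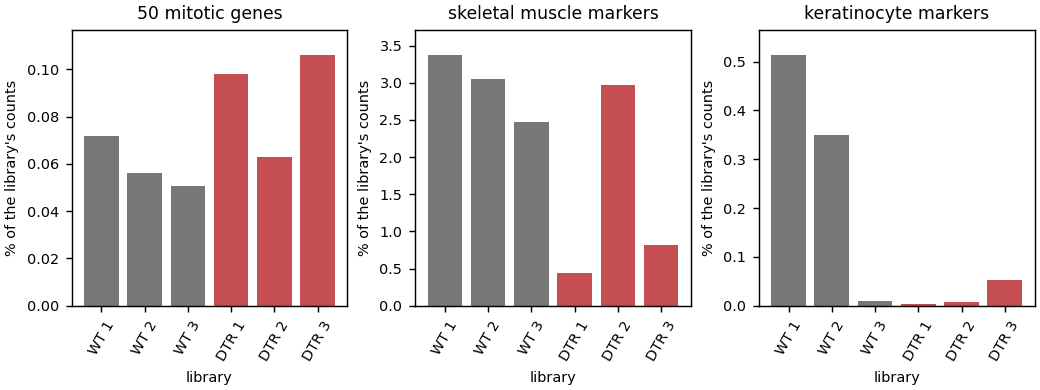
Bars give the share of each library's counts, in %, on the 50 mitotic genes, on 30 skeletal muscle markers and on 20 keratinocyte markers, for each WT (grey) and DTR (red) library. DTR 1 and DTR 3 have the highest mitotic shares, 0.0982% and 0.106%, and the lowest muscle shares, 0.438% and 0.82%.

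Other genes of cell division, in lists that did not include the 50, had smaller median fold changes, with the nearest values in spindle genes. The 22 other spindle and cytokinesis genes, among them mitotic kinesins and regulators of abscission, had a median log2FC of 0.68. Of these, 9 had an unadjusted p under 0.05 and were higher (5.52% of all genes) and 1 lower, *Ccdc69*, at -0.60 (SE 0.25). Among the 29 other kinetochore and centromere genes the median was 0.45 and 8 had an unadjusted p under 0.05, all higher. *Cenpq*, of the inner kinetochore, showed 343.1, 279.7 and 294.1 normalized counts across the WT tendons and 439, 421.9 and 410 across the DTR tendons, with a log2FC of 0.47 (SE 0.14). For *Cenpq*, named for its small unadjusted p, the 3 DTR libraries were alike and above the WT libraries, and DTR replicate 2 was not the lowest of them. The list as a whole differed from it, with mean log2 levels relative to the WT mean of 0.47, 0.1 and 0.55 in DTR replicates 1 to 3. Of the 29 genes, 7 were higher without overlap, against 8.96% of all genes. Among the 8 other checkpoint genes the median was 0.28 and 2 had an unadjusted p under 0.05, both higher: *Kntc1*, of the complex that brings dynein to kinetochores, at 0.79 (SE 0.29), and *Zwilch*, of the same complex, at 0.48 (SE 0.20).

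The other complexes lay nearer to the median of all genes. Of all genes tested, 5.52% were higher at an unadjusted p under 0.05 in edgeR. The 17 genes of condensin II and cohesin had a median log2FC of 0.12, with 1 higher at that level, *Ncapg2*, which is close to that share. The list of the anaphase-promoting complex, with its regulators and securin, held 18 genes and had a median of 0.14. In that list 3 genes were higher at that level and 1 was lower, securin (*Pttg1*). *Cdc27*, a core subunit of that complex, showed 3531.3, 3581 and 3542.3 normalized counts across the WT tendons and 4370.7, 4311.3 and 3918.2 across the DTR tendons, without overlap and with DTR replicate 2 alongside DTR replicate 1. The 16 genes of mitotic entry had a median of 0.27 and 2 such genes, *Plk4*, the kinase of centriole duplication, at 0.53 (SE 0.15) and *Cks2*, a subunit of CDK complexes, at 0.72 (SE 0.24). The 40 S phase genes had a median of 0.26, with 10 at an unadjusted p under 0.05, all higher, and 12 without overlap (8.96% of all genes), among them *Rrm1*, of ribonucleotide reductase, at 0.37 (SE 0.11). The 18 genes of the DREAM complex and the E2F family, which repress or activate the cell cycle genes, had a median of 0.08. Of these genes 10 were fitted higher and 8 lower, near the 51.5% of all genes fitted higher. In this list *Rbl1* (p107), at 0.35 (SE 0.12), was the one with an unadjusted p under 0.05, again close to the share of all genes. By edgeR 0 genes of these 8 lists had an adjusted p under 0.05.

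**Figure D4:**
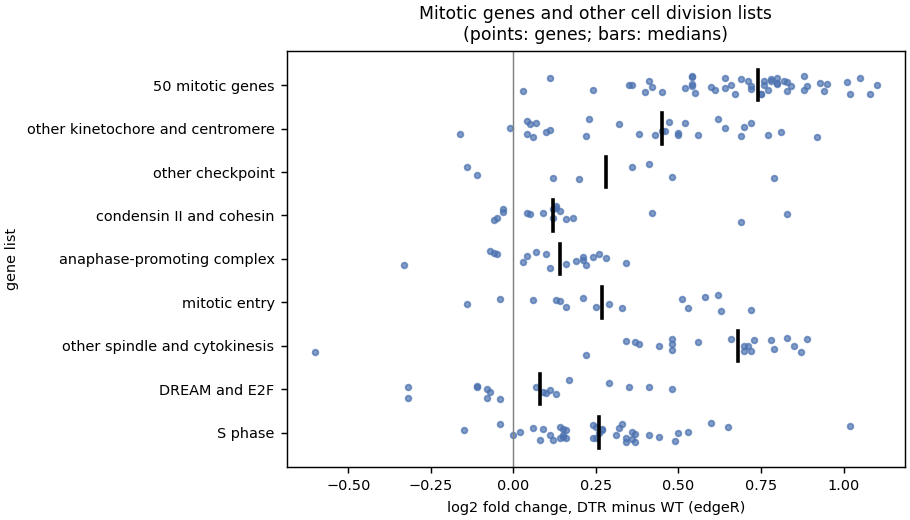
Each point is 1 gene, placed by its log2FC (DTR minus WT, edgeR), and each bar is the median of a list. The median of the 50 mitotic genes is 0.74, that of other spindle and cytokinesis genes 0.68, that of S phase genes 0.26 and that of DREAM and E2F genes 0.08.

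The members varied together over the 6 libraries. Pearson's r of each member with the mean log2 CPM of the others had a median of 0.974, and 34 of 50 reached 0.95. The least alike after *Bub3* were *Espl1* (0.709), *Smc2* (0.812), *Mybl2* (0.829), *Cenpa* (0.843) and *Smc4* (0.864). Among 14359 other genes that averaged 50 or more normalized counts, 85, or 0.592%, reached an r of 0.95 with the mean of the members. The closest was *Kif11* (0.9976), the kinesin that pushes spindle poles apart, followed by *Pbk*, *Traip*, *Ddx58*, *Enc1*, *Cdca5*, *Lonrf3*, *Kif23*, *Tmpo* and *Kif22*. *Kif11* showed 678, 436 and 411.6 normalized counts across the WT tendons and 1135.7, 559.6 and 1022.5 across the DTR tendons, the same order of libraries as *Top2a*. *Ddx58*, the RNA sensor RIG-I, which is not a gene of cell division, showed 2309.2, 1911.5 and 1848 across the WT and 2849.5, 2110.2 and 2649.1 across the DTR tendons. These correlations describe 6 libraries that differ in genotype and in muscle RNA, and carry no test.

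Some of the 50 genes share sequence with others, by GENCODE M21 on GRCm38, and whether strand was used in counting is not given in the sources used here. On the opposite strand, 35% of the exon bases of *Sgo2a* overlapped *Kctd18*, 22.8% of *Ube2c* overlapped *Tnnc2*, 13.4% of *Ncapg* overlapped *Lcorl*, 12.5% of *Ccna2* overlapped *Exosc9* and 11.1% of *Prc1* overlapped *Rccd1*. *Tnnc2* is a muscle marker, so the values of *Ube2c* are uncertain beside the muscle levels above. Of *Nusap1*, 4.24% overlapped *Oip5* on the opposite strand. The WT means were 489.6 normalized counts for *Nusap1* and 62.9 for *Oip5*, so the values of *Oip5* are uncertain too. Of the 50-base stretches of *Ccnb1*, 23.4% also occurred in other genes, its pseudogene *Ccnb1-ps* among them, as did 19.3% for *Mybl2*, 10.6% for *Cdc20* and 10.4% for *Plk1*. The values of these genes are uncertain to that extent.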

How the data were processed

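Bulk RNA-seq was made from FDL tendons of 3 WT and 3 DTR mice, from 200 ng total RNA each. The authors cleaned single-end reads with FastP, counted them with featureCounts and deposited whole-number counts per gene. A signal table of normalized values was deposited too, and equals the counts divided by DESeq2 size factors (0.973 to 1.06). DESeq2 1.22.1 is named in the submitters' processing notes. The aligner, build, annotation and strand setting are not given in the sources used here, and the labels name both a TruSeq Stranded and a SMARTER kit. Sample titles count D28 from depletion and the protocol from surgery, which is followed here.

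The analysis used R 4.3.3 and edgeR 4.0.16 (filterByExpr, TMM normalization, robust quasi-likelihood fit, genotype as the single term) over 17496 genes, with p-values adjusted by Benjamini and Hochberg and a threshold of 0.05. Standard errors were derived from the log2 fold change and its F statistic (size of the change over root F). With n = 3 and 1 library per mouse, p-values rest on the spread between libraries. That spread includes any differences in dissection and library preparation as well as between mice. Over all genes together, replicate libraries differed by 40.1 to 209 chi-square per degree of freedom, so none was a duplicate. Abundant genes weigh most in that value, which does not give the counting noise of single members. Scripts were tested on simulated data. Alternatives were DESeq2 1.42.0, limma 3.58.1 (voom, and log2 of deposited normalized counts plus 1 or 5), and other normalizations and filters. Others were a replicate block, a muscle covariate, removal of muscle and keratinocyte markers before normalization, and each library left out. A term for sex read from *Xist* was added after seeing the data.

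The 50 members and all gene lists were chosen with earlier results of these data known. Values in every library were given for the 2 genes of each role with the largest and the 1 with the smallest log2 fold change, for genes without overlap and for partners of these. From other lists, the 3 genes with the smallest unadjusted p and a mean of at least 50 normalized counts could be named, with partners of members, *Hjurp* and *Ccdc69*, which were chosen after their values were seen. The 10 other genes most like the mean of the members over the 6 libraries were named by Pearson's r. Exon lengths and shared 50-base stretches came from GENCODE M21, and promoters from RefSeq (GRCm38.p6), of which 40 of 47 member entries ran into a GENCODE transcript start.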

Additional observations from a re-analysis of the deposited data

How the results depend on the processing

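All 50 members were fitted higher under every alternative except the muscle covariate (39) and the fit without DTR replicate 1 (49). DESeq2 called 11 members higher, and 1.12% of the genes it tested. Without a filter on low counts edgeR called 1 member higher, *Smc2*, and 45 of 30758 genes. The main edgeR fit called 0 members and 0% of all genes. With the skeletal muscle covariate the median log2 fold change was 0.21 and 1 member had an unadjusted p under 0.05. In the same fit the medians of the passenger complex (-0.04) and of the transcription factors (-0.13) turned negative, as did *Bub1b* (-0.0028), *Bub3* (-0.04), *Cenpa* (-0.21), *Sgo1* (-0.05), *Aurkb* (-0.25), *Birc5* (-0.04), *Aurka* (-0.39), *Ccnb1* (-0.03), *Espl1* (-0.24), *Foxm1* (-0.11) and *Mybl2* (-0.15), and *Espl1* ranged from -0.07 (without DTR replicate 1) to 0.26 (without DTR replicate 2) with single libraries left out. The covariate takes 1 of few degrees of freedom and follows DTR replicates 1 and 3, and the cause of these moves was not tested. With each library left out in turn, 49 to 50 members were fitted higher, and the median was between 0.58 and 0.98. In these fits 8 to 46 members had an unadjusted p under 0.05, 0 to 8 an adjusted p under 0.05 and 7 to 48 did not overlap. Groups of fewer libraries separate more readily for any gene, so the counts without overlap are not comparable with those from all libraries. With *Xist* as a term, chosen after seeing the data, the median was 0.82 and 32 members had an unadjusted p under 0.05. For the unadjusted p, the shares of all genes in the fits of this paragraph are not given here. Changes in those counts are therefore not shown to be particular to the members.

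The replicate numbers shared by the genotypes gave no sign of pairing. The deviations of same-numbered libraries from their group means correlated at -0.19, -0.15 and -0.68, and not every library correlated best with its own number. With 3 libraries per genotype that also differ in sex and muscle RNA, such a check cannot exclude pairing, for example by litter. With the replicate block, 50 members were fitted higher, 35 had an unadjusted p under 0.05, 0 had an adjusted p under 0.05 and the median was 0.73. The shares of all genes in the fit with the block are not given here either. The least abundant member averaged 102.8 normalized counts, and each genotype had 3 mice.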
